A study of Mus musculus with 12 samples.

Results

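Chronic restraint stress given together with imiquimod was compared with imiquimod alone in mouse dorsal skin. The members are the 6 libraries of the deposited table that sets these groups against each other, out of 12 libraries in the series. All came from C57BL/6J mice on day 29. The 3 CRS_IMQ libraries are labelled with both chronic restraint stress and imiquimod, and the 3 IMQ libraries with imiquimod only, so imiquimod was shared by both groups. The other 6 libraries, 3 of untreated skin (Ctrl) and 3 of skin under restraint stress without imiquimod (CRS), enter only where the stress difference with imiquimod is set against that without it. Age, sex and the dose and length of either treatment are not given in the sources used here, nor is whether each library came from its own animal. Spread between libraries is all that the p-values measure, and it may be technical.

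Imiquimod is an agonist of Toll-like receptor 7, and applied to mouse skin it gives thickened, scaling epidermis with infiltrating leukocytes that is used as a model of psoriasis. Keratinocytes in such skin switch from the resting program of terminal differentiation to an activated one, with wound keratins, small proline-rich proteins and antimicrobial peptides, and release chemokines that draw in neutrophils and monocytes. Restraint activates the adrenal axis and the sympathetic nerves. Glucocorticoids are known to dampen inflammatory transcription in skin and to act on the hair cycle.

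Values are FPKM (fragments per kilobase of transcript, scaled to the mapped fragments of the library) as deposited. Differences were taken as CRS_IMQ minus IMQ on log2(FPKM + 1), a scale that understates the change of genes with low values. A gene was tested when at least 3 of the 6 libraries reached 1 FPKM, and it is said to have risen or fallen when its adjusted p was under 0.05 in limma. Values after ± are the SD (n = 3) for FPKM and the SE for log2 differences. In whole tissue, fewer cells of a type and less RNA per cell cannot be told apart.

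Both groups carried the defining genes of skin. Krt5 of the basal layer lay at 1445 to 1798 FPKM in the IMQ libraries and 2513 to 2571 FPKM in the CRS_IMQ libraries. Skeletal muscle was part of every sample, with Acta1, the muscle actin, at 10816 to 14933 FPKM in the IMQ libraries and 6586 to 6778 FPKM in the CRS_IMQ libraries. The T cell genes Cd3e, Cd3d and Trac and the B cell gene Ms4a1 stayed under 1 FPKM in all 6 libraries. Trdc, of gamma-delta T cells, lay at 1.51 to 2.46 FPKM in the IMQ libraries and 0.75 to 0.933 FPKM in the CRS_IMQ libraries, and Ighm, the IgM heavy chain, at 22.1 to 33.4 and 34.9 to 36.3 FPKM. Between 13355 and 13753 genes reached 1 FPKM per library. The steps of low FPKM values came within 0.05 of whole reads in 35.1 to 39.9% of the values used, so reads could not be recovered and sequencing depth is not known.

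The IMQ libraries differed from each other far more than the CRS_IMQ libraries did. The median coefficient of variation over tested genes was 15.9% in IMQ and 6.4% in CRS_IMQ, and 10698 of 13981 tested genes had the larger spread in IMQ. The median absolute log2 difference between IMQ replicates 1 and 2 was 0.299, and it was 0.082 to 0.0835 between CRS_IMQ libraries. No CRS_IMQ library was thus an identical copy of another, but whether they differed by more than counting noise cannot be told without the depth. IMQ replicate 3 lay between the other two IMQ libraries in 9091 genes (65.0%), and it differed by a median of 0.076 on the log2 scale from a weighted mean of 0.6 times replicate 1 and 0.4 times replicate 2. For the CRS_IMQ libraries the same measure was 0.073 to 0.075. What lies behind these spreads was not tested. Each list count below is therefore set against the count from a fit in which the CRS_IMQ libraries were averaged to 1 sample and all spread came from the IMQ libraries (the 1-sample fit).

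Of 13981 tested genes 2618 rose (18.7%) and 2544 fell (18.2%), together 36.9%. In the 1-sample fit 671 rose (4.8%) and 149 fell (1.07%), together 5.87%, and 813 of these 820 genes were also called with 3 CRS_IMQ libraries. With IMQ replicate 3 also left out, 290 rose and 14 fell. Among called genes large changes were mostly rises, since 1005 rose and 464 fell by at least 1 on the log2 scale, and 82 rose and 21 fell by at least 3. A large fall with a wide IMQ spread can miss the call, as that of Krt25 (log2 difference -4.02) did. No library of one group overlapped the other group in 3458 genes that were higher (24.7%) and 4093 that were lower (29.3%) in CRS_IMQ. The median log2 difference of all tested genes was -0.07. The filter let in 428 genes through CRS_IMQ alone and 270 through IMQ alone, and the groups of these genes could not overlap. Calls of such genes are a product of the filter as much as of the data, so their levels are given as a description, and their number is stated beside each list count. Among the genes named below they are Ccl4, Cd3g, Cd4, Cd80, Cxcl1, Cxcl2, Fcer1a, Fosl1, Hsd11b1, Ighg2c, Il1rl1, Il24, Krt28, Krt35, Krt73, Krt77, Lep, Lyve1, Mmp8, Mmp9, Retnlg, Shh, Spink12, Sprr2j-ps, Stfa2l1, Tlr1, Tlr13, Tlr7, Tnnc1, Trdc and Vcam1. The share of a list that rose or fell is to be read against the 18.7% and 18.2% of all tested genes. Because the lists were chosen with earlier results of these data known, a larger share is a description and no test of the list.

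Among the 10 largest rises, Retnlg, a resistin-like protein of neutrophils, measured 0.975, 0.233 and 0.985 FPKM in the IMQ libraries and 116, 102 and 104 FPKM in the CRS_IMQ libraries (log2 difference 6.00 ± 0.20, tested through CRS_IMQ alone). Saa3, an acute-phase serum amyloid, measured 5.93, 7.79 and 5.69 FPKM in the IMQ libraries and 469, 458 and 459.9 FPKM in the CRS_IMQ libraries (log2 difference 5.97 ± 0.12, adjusted p = 7.49e-06). Cxcl13, a chemokine for B cells and other CXCR5-bearing cells, measured 2.10, 2.62 and 3.58 FPKM in the IMQ libraries and 213, 209 and 224 FPKM in the CRS_IMQ libraries (log2 difference 5.86 ± 0.15, adjusted p = 1.09e-05). No overlap between the groups was a condition of this ranking, so it is not a result. In all 3 genes the CRS_IMQ values lay close together. Chil3, a chitinase-like protein of macrophages and neutrophils, went from 0.575 ± 0.449 to 51.6 ± 2.65 FPKM and S100a9, a subunit of calprotectin, from 78.4 ± 70.9 to 1769 ± 33.3 FPKM (5.10 ± 0.21 and 5.07 ± 0.85 on the log2 scale). Krt6b, a keratin of activated epidermis, and Csta3, a cystatin A-like gene, rose by 5.77 ± 0.58 and 5.61 ± 0.40. The other 3 were the envelope genes Sprr2i, Sprr2j-ps (tested through CRS_IMQ alone) and Sprr2f. 

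The 10 largest falls held 3 keratins of the hair follicle, 2 serpins, 2 genes of sebum and sphingolipid synthesis and 3 others. Krt28, an inner root sheath keratin, measured 10.9, 227 and 99.4 FPKM in the IMQ libraries and 0.482, 0.758 and 0.43 FPKM in the CRS_IMQ libraries (log2 difference -5.39 ± 1.04, tested through IMQ alone). No overlap was a condition here too, and the IMQ libraries spanned a wide range, with replicate 1 lowest. Lhx2, a transcription factor of hair follicle stem cells, measured 20.8, 26.9 and 22.6 FPKM in the IMQ libraries and 1.04, 1.05 and 1.31 FPKM in the CRS_IMQ libraries (log2 difference -3.51 ± 0.12, adjusted p = 1.94e-05), with close values within each group. Retnla, a resistin-like protein of alternatively activated macrophages, measured 50.8, 45.2 and 50.1 FPKM in the IMQ libraries and 3.12, 3.16 and 2.97 FPKM in the CRS_IMQ libraries (log2 difference -3.60 ± 0.08, adjusted p = 7.49e-06). The serpins Serpina3b and Serpina3j had log2 differences of -4.38 and -4.33, and the cytochrome P450 gene Cyp2g1 one of -3.35. Krt73 and Krt35, Fa2h and Awat1 are described with their groups. In the 1-sample fit S100a9, Krt6b, Krt28, Serpina3b, Serpina3j and Cyp2g1 (adjusted p = 0.0608 to 0.187) did not pass.

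**Figure D1:**
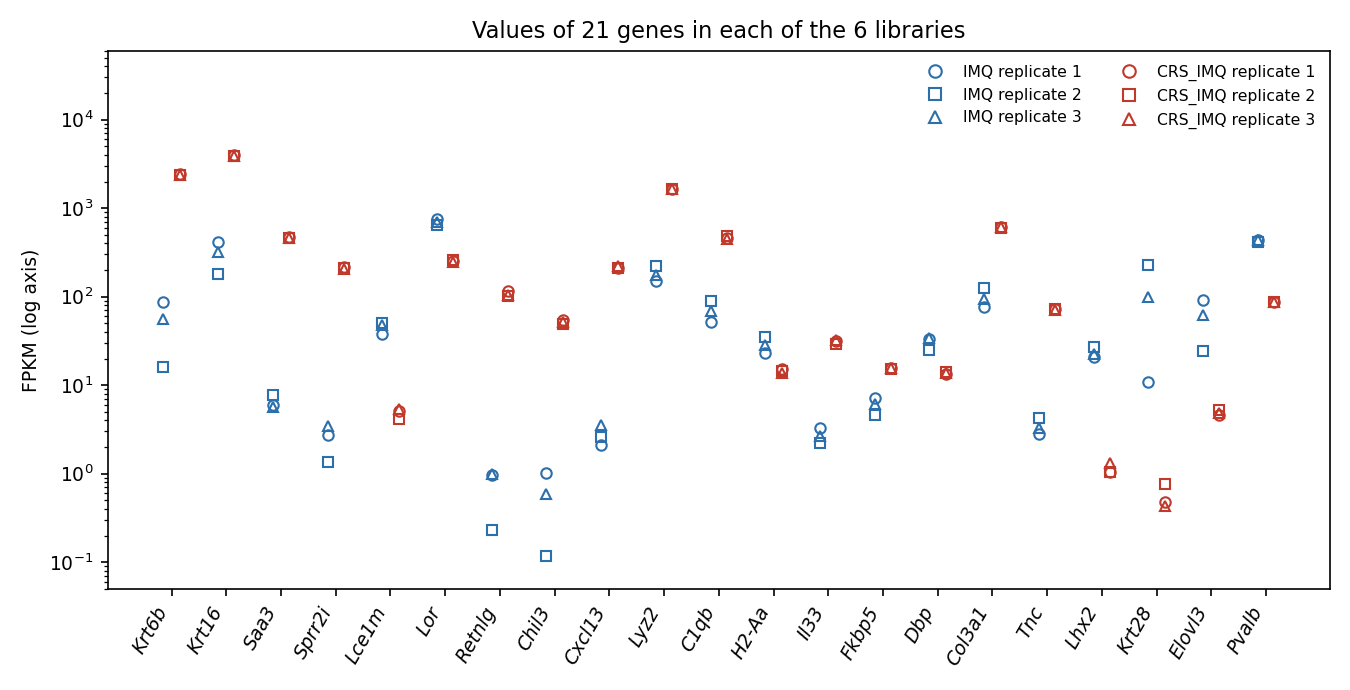
FPKM (log axis) of 21 genes in each of the 6 libraries, IMQ in blue and CRS_IMQ in red, with a circle, square and triangle for replicates 1, 2 and 3. The CRS_IMQ symbols lie close together for most genes. The IMQ symbols spread for some genes, most of all for Krt28, and lie close together for others, such as Pvalb and Lor.

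Small proline-rich (Sprr) and late cornified envelope (Lce) proteins are cross-linked under the plasma membrane of dying keratinocytes, and their genes stand in families along the epidermal differentiation complex on chromosome 3. Families of this locus moved in opposite directions. In the list of these genes 21 of 37 tested members rose (3 through CRS_IMQ alone) and 15 fell, against 20 and 15 in the 1-sample fit, with a median log2 difference of 2.36. All called Sprr genes and all 6 Lce3 genes rose, and all called Lce1 genes fell, as did Lce6a, which is named after its value was seen. Sprr4 was the member without a call (log2 difference 0.32 ± 0.30, adjusted p = 0.439), at 6.31 ± 2.61 to 7.74 ± 1.33 FPKM. It is named here after its value was seen. Members of a family are near copies, so reads may be split among them, and single members are uncertain where the family moved as one.

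Sprr2i lies at chr3:92407991-92409271 (mm10) and measured 2.75, 1.35 and 3.45 FPKM in the IMQ libraries and 217, 209.7 and 207 FPKM in the CRS_IMQ libraries (log2 difference 5.96 ± 0.23, adjusted p = 2.88e-05). Sprr1a, at chr3:92483952-92485895, measured 75.1, 63.2 and 71.9 FPKM in the IMQ libraries and 1015, 1060.1 and 1020.1 FPKM in the CRS_IMQ libraries (log2 difference 3.86 ± 0.09, adjusted p = 7.51e-06). Lce3b, at chr3:92932979-92934097, measured 3.75, 0.691 and 2.34 FPKM in the IMQ libraries and 85.7, 86.2 and 83.5 FPKM in the CRS_IMQ libraries (log2 difference 4.85 ± 0.36, adjusted p = 0.000244). For Sprr1a and Lce3b every CRS_IMQ library was above every IMQ library, which was a condition of the ranking for Sprr2i. Lce1m, the largest fall of the locus and named after its value was seen, lies at chr3:93017810-93019060 and measured 37.9, 50.5 and 47.7 FPKM in the IMQ libraries and 5.06, 4.20 and 5.41 FPKM in the CRS_IMQ libraries (log2 difference -2.97 ± 0.14, adjusted p = 4.89e-05). It stood lower in every CRS_IMQ library, although it lies apart from the other Lce1 genes, beyond the Lce3 genes.

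**Figure D2:**
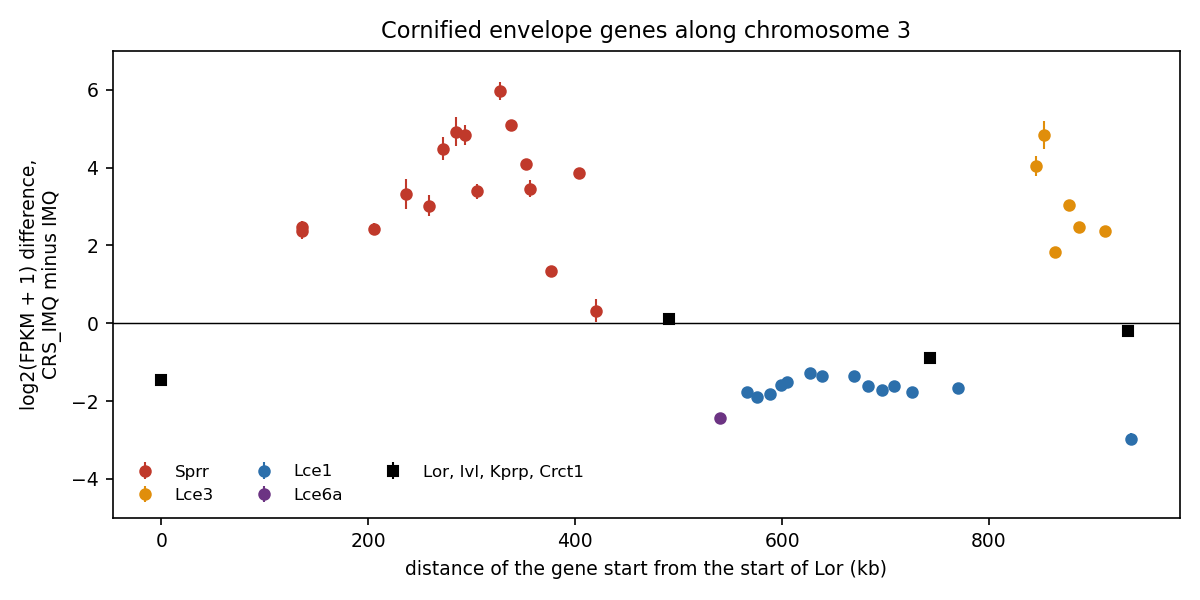
Difference in log2(FPKM + 1), CRS_IMQ minus IMQ, of cornified envelope genes against the distance of each gene's start from the start of Lor in kb on chromosome 3, with bars for the SE. Sprr (red) and Lce3 (orange) genes lie above 0, Lce1 (blue) and Lce6a (purple) below it, and Lor is at -1.46.

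Promoters of these 4 genes are shown because the results on the locus turn on them. Lce1m is the largest fall and need not be typical of the Lce1 genes, among which the TATAAA letters stood in Lce1m and 1 other. Each promoter is the 250 bases before the start annotated by RefSeq on GRCm38.p6, on the gene's own strand. For Sprr1a that start lies inside the gene position given above, so its 250 bases overlap the first bases of the gene. Capitals mark matches on either strand to the AP-1 motif TGANTCA and the TATA box TATAAA. The positions are chr3:92407741-92407990 on the plus strand for Sprr2i, chr3:92485882-92486131 on the minus strand for Sprr1a, chr3:92932729-92932978 on the plus strand for Lce3b and chr3:93019062-93019311 on the minus strand for Lce1m.
Sprr2i: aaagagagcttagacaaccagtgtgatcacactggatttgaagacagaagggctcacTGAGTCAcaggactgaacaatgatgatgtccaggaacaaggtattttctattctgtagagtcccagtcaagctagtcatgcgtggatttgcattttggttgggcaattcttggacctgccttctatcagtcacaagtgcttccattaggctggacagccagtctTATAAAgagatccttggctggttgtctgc
Sprr1a: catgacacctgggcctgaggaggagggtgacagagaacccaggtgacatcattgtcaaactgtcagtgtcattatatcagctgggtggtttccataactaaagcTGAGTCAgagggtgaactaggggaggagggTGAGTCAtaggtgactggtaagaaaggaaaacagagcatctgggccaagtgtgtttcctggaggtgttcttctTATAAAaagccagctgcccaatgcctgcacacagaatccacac
Lce3b: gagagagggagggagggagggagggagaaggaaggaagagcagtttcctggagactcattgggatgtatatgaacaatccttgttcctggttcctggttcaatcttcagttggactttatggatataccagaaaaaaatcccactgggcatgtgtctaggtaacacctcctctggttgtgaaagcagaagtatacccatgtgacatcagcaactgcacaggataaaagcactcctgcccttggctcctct
Lce1m: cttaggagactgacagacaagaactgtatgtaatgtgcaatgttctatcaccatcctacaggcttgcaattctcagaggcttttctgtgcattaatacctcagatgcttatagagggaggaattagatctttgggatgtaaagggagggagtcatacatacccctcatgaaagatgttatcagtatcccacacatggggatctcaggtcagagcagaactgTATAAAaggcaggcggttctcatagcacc
RefSeq promoters were matched for 18 of the risen and 14 of the fallen members. The AP-1 letters stood in 9 of the 18, all Sprr genes, in 0 of the 14, and in 6.9% of 27025 mouse promoters of the same length. In Sprr2i the match began at position -193 and the TATAAA letters at -29 from the start. TATAAA stood in 11 of the 18, 3 of the 14 and 13% of all promoters. The NF-kB letters GGNNTTTCC stood in 1 of the 18, 0 of the 14 and 4.8% of all promoters. The Sprr2 promoters resemble each other, so these matches are not independent, and a match describes letters, not binding.

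Terminal differentiation genes beyond these families were called about as often as all tested genes in both directions. In their list 6 of 28 tested members rose and 7 fell (2 through IMQ alone), against 0 and 2 in the 1-sample fit, with a median log2 difference of 0.03 (-0.11 without IMQ replicate 2, 0.13 without IMQ replicate 1 and -0.05 with quantile normalization). Lor, encoding loricrin, the main protein of the envelope, measured 748, 640.0 and 703 FPKM in the IMQ libraries and 252, 259.7 and 246 FPKM in the CRS_IMQ libraries (log2 difference -1.46 ± 0.08, adjusted p = 9.34e-05), with no overlap. Krt77, a suprabasal keratin of mouse skin, fell with a log2 difference of -3.28 ± 0.31 (tested through IMQ alone), and Flg, encoding filaggrin, with one of -0.73 ± 0.12. Krt10 and Krt1, the suprabasal keratins, were not called (0.14 ± 0.17 and 0.41 ± 0.14), whereas Trex2, an exonuclease of differentiated keratinocytes, and Dsg1b, a desmoglein, rose by 1.29 ± 0.15 and 1.37 ± 0.14. 

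Of the basal and basement membrane genes 8 of 20 tested members rose and 3 fell, against 3 and 0 in the 1-sample fit, with a median log2 difference of 0.26, and 5 fell without IMQ replicate 2. Krt14, the basal keratin, measured 2431, 1564 and 2114 FPKM in the IMQ libraries and 7988, 7969 and 7819.9 FPKM in the CRS_IMQ libraries (log2 difference 1.98 ± 0.17, adjusted p = 0.000405). Its partner Krt5 rose by 0.64 ± 0.10, less than Krt14. Krt15, a keratin of resting basal cells and the follicle bulge, measured 714, 298 and 549.7 FPKM in the IMQ libraries and 90.0, 88.9 and 86.9 FPKM in the CRS_IMQ libraries (log2 difference -2.45 ± 0.31, adjusted p = 0.00188). None of these 3 keratins overlapped between the groups. The integrin Itga5, a fibronectin receptor subunit, rose by 1.28 ± 0.09. 

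Among activated keratins and antimicrobial genes 29 of 32 tested members rose (7 through CRS_IMQ alone) and 1 fell, against 17 and 0 in the 1-sample fit, with a median log2 difference of 2.57. Slpi, a leukocyte protease inhibitor with antimicrobial action, went from 2.26 ± 1.54 to 74.5 ± 1.69 FPKM. The calprotectin subunit S100a8 went from 69.7 ± 59.2 to 851 ± 27.6 FPKM, and its call was lost without any CRS_IMQ library (adjusted p = 0.0566 to 0.0578). In a list of connexins and desmosomal genes 11 of 18 tested members rose and 3 fell, against 2 and 1 in the 1-sample fit, with a median log2 difference of 0.38. The connexins Gjb2 and Gjb6 rose by 2.72 ± 0.27 and 2.19 ± 0.09. Dsc2, a desmocollin, rose by 1.67 ± 0.11. In the stefin A cluster of cysteine protease inhibitors 6 of 8 tested members rose (1 through CRS_IMQ alone) and 0 fell, against 1 and 0 in the 1-sample fit, with a median log2 difference of 1.63. Stfa2l1, which neutrophils express, went from 0.0791 ± 0.0686 to 21.6 ± 1.41 FPKM (tested through CRS_IMQ alone). Stfa3, the most abundant of them, was lost without IMQ replicate 3 or any CRS_IMQ library (adjusted p = 0.0658 to 0.0795). 

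Kallikreins are serine proteases that cut the corneodesmosomes which hold scales together. Of the kallikreins and their inhibitors 9 of 15 tested members rose (1 through CRS_IMQ alone) and 1 fell, against 3 and 0 in the 1-sample fit, with a median log2 difference of 0.56. Klk12 went from 0.818 ± 0.419 to 8.01 ± 0.259 FPKM and Klk10 from 23.1 ± 2.80 to 89.6 ± 0.328 FPKM, with no overlap in either. Klk6 rose by 1.8 ± 0.19 and the inhibitor Spink12, tested through CRS_IMQ alone, by 1.94 ± 0.22. The abundant Klk7 and Klk8 were called at 0.53 ± 0.14 and 0.56 ± 0.14, and were lost without IMQ replicate 3 or any CRS_IMQ library (adjusted p = 0.0548 to 0.0961). 

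In acylceramide and barrier lipid synthesis 9 of 20 tested members rose and 3 fell, against 1 and 0 in the 1-sample fit, with a median log2 difference of 0.30 (0.45 without IMQ replicate 1), and 5 fell without IMQ replicate 2. Fa2h, the fatty acid 2-hydroxylase, went from 87.4 ± 36.9 to 6.23 ± 0.4 FPKM (log2 difference -3.50 ± 0.35, adjusted p = 0.000733). The ceramide synthase Cers4 and the fatty acid transporter Slc27a4 fell, with log2 differences of -1.73 and -1.23, and Ugcg, glucosylceramide synthase, rose by 1.30. In the 1-sample fit Flg, Trex2, Dsg1b, Krt14, Krt5, Krt15, S100a8, Gjb2, Stfa3, Klk6, Spink12, Klk7, Klk8, Fa2h, Cers4 and Slc27a4 (adjusted p = 0.0514 to 0.324) did not pass.

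EGF receptor ligands drive keratinocyte growth and migration. In the list of the receptor, its ligands and feedback genes 7 of 15 tested members rose and 2 fell, against 3 and 0 in the 1-sample fit, with a median log2 difference of 0.24 (0.06 without IMQ replicate 1 and 0.44 without IMQ replicate 2). The ligand epigen (Epgn) measured 2.02, 0.833 and 2.35 FPKM in the IMQ libraries and 25.7, 26.9 and 27.8 FPKM in the CRS_IMQ libraries (log2 difference 3.39 ± 0.23, adjusted p = 0.000173). Amphiregulin (Areg) went from 2.77 ± 0.961 to 14.9 ± 0.807 FPKM and Hbegf from 3.23 ± 0.288 to 13.7 ± 0.536 FPKM. No library overlapped between the groups for these 3 ligands. The feedback inhibitor Errfi1 rose by 1.12 ± 0.13, and the receptor partner Erbb2 was at -0.57 ± 0.18 without a call. 

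Of the wound protease and plasminogen genes 17 of 19 tested members rose (4 through CRS_IMQ alone) and 0 fell, against 12 and 0 in the 1-sample fit, with a median log2 difference of 2.11. Mmp3, stromelysin, measured 8.58, 7.73 and 7.44 FPKM in the IMQ libraries and 110.0, 105 and 111 FPKM in the CRS_IMQ libraries (log2 difference 3.62 ± 0.08, adjusted p = 7.49e-06). The neutrophil collagenase Mmp8 and the gelatinase Mmp9, both tested through CRS_IMQ alone, rose by 4.09 ± 0.08 and 3.38 ± 0.15. The inhibitors rose too, with Timp1 from 5.26 ± 1.67 to 53.3 ± 1.48 FPKM. All CRS_IMQ values of Mmp3 and Timp1 lay above all IMQ values. 

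Most tested neutrophil markers were under 1 FPKM in every IMQ library and entered the test only through CRS_IMQ. Their rise is given as a description. Of the neutrophil markers 28 of 29 tested members rose (21 through CRS_IMQ alone) and 0 fell, against 20 and 0 in the 1-sample fit, with a median log2 difference of 2.26. The summed level of the list lay between 459.5 and 899 FPKM in the IMQ libraries and 3508 and 3587 FPKM in the CRS_IMQ libraries. Members tested through CRS_IMQ alone gave little of the IMQ sum, each being under 1 FPKM there. The sum is thus carried by a few abundant members and is not a measure of neutrophil content. Asprv1, which keratinocytes also express, was the member without a call, at 0.05 ± 0.14. Of the neutrophil chemoattractants and growth factors 10 of 10 tested members rose (6 through CRS_IMQ alone) and 0 fell, against 6 and 0 in the 1-sample fit, with a median log2 difference of 1.13. Cxcl2, a ligand of CXCR2, measured 0.367, 0 and 0.184 FPKM in the IMQ libraries and 11.7, 10.9 and 11.1 FPKM in the CRS_IMQ libraries (log2 difference 3.38 ± 0.13, tested through CRS_IMQ alone). Cxcl1, tested through CRS_IMQ alone, rose by 1.61 ± 0.15 and C5ar1, the C5a receptor, by 2.58 ± 0.07. Ltb4r1, the leukotriene B4 receptor, rose by 0.68 ± 0.09. For Cxcl2 every IMQ library was under 1 FPKM.

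Macrophage genes rose in both lists. Of the inflammatory macrophage and phagocyte genes 29 of 31 tested members rose (5 through CRS_IMQ alone) and 0 fell, against 23 and 0 in the 1-sample fit, with a median log2 difference of 2.30, and of the resident dermal macrophage genes 20 of 22 tested members rose (1 through CRS_IMQ alone) and 1 fell, against 15 and 1 in the 1-sample fit, with a median log2 difference of 2.24. Lyz2, lysozyme of myeloid cells, measured 151, 221 and 176 FPKM in the IMQ libraries and 1648, 1656 and 1667 FPKM in the CRS_IMQ libraries (log2 difference 3.19 ± 0.14, adjusted p = 4.43e-05). Itgam, the CD11b integrin, measured 2.44, 2.30 and 1.57 FPKM in the IMQ libraries and 38.3, 38.6 and 30.7 FPKM in the CRS_IMQ libraries (log2 difference 3.57 ± 0.15, adjusted p = 3.39e-05). Both were higher in every CRS_IMQ library by several-fold. The IMQ libraries ranged from 151 to 221 FPKM for Lyz2 and from 1.57 to 2.44 FPKM for Itgam. Adgre1, encoding F4/80, went from 9.19 ± 2.93 to 80.7 ± 1.32 FPKM and the scavenger receptor Cd163 from 3.71 ± 0.635 to 30.7 ± 0.77 FPKM. Fcgr4, an Fc receptor, Itgb2, the common integrin chain, and Ms4a7 rose by 3.26 ± 0.11, 3.27 ± 0.08 and 3.05 ± 0.15. Retnla was the one resident macrophage gene that fell. 

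The chemokines of monocytes and lymphocytes showed the same direction, and 18 of 25 tested members rose (5 through CRS_IMQ alone) and 2 fell, against 11 and 0 in the 1-sample fit, with a median log2 difference of 1.20. Ccl8 measured 53.2, 82.8 and 70.4 FPKM in the IMQ libraries and 663, 666 and 658 FPKM in the CRS_IMQ libraries (log2 difference 3.27 ± 0.16, adjusted p = 5.74e-05). Ccl4 went from 0.3 ± 0.137 to 9.22 ± 1.82 FPKM and Ccl6 from 9.39 ± 1.48 to 77.0 ± 1.07 FPKM. Ccl8 and Ccl6 did not overlap between the groups. Ccl4, tested through CRS_IMQ alone, could not, and Cxcl13 was ranked on that condition. 

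Toll-like receptors sense microbial products and, for TLR7, imiquimod itself. Of these receptors and their signaling genes 16 of 19 tested members rose (8 through CRS_IMQ alone) and 0 fell, against 9 and 0 in the 1-sample fit, with a median log2 difference of 0.98. Tlr2, a receptor of bacterial lipoproteins, went from 1.60 ± 0.0214 to 10.5 ± 0.912 FPKM. Tlr13, an endosomal receptor of bacterial RNA in the mouse, rose by 2.21 ± 0.09 and Tlr1 by 2.05 ± 0.13, both tested through CRS_IMQ alone. Unc93b1, the chaperone of endosomal receptors, measured 13.3, 21.6 and 16.4 FPKM in the IMQ libraries and 76.4, 78.0 and 75.1 FPKM in the CRS_IMQ libraries (log2 difference 2.12 ± 0.17, adjusted p = 0.0003). Its groups were well apart. Tlr7 measured 0.412, 0.416 and 0.589 FPKM in the IMQ libraries and 1.68, 3.58 and 1.05 FPKM in the CRS_IMQ libraries, with CRS_IMQ replicate 2 well above the other two. Its call (log2 difference 0.99 ± 0.29, tested through CRS_IMQ alone) was lost without any IMQ library or CRS_IMQ replicate 1 (adjusted p = 0.0752 to 0.0895). The adaptor Myd88 rose by 1.06 ± 0.06. 

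Of the complement genes 20 of 21 tested members rose (1 through CRS_IMQ alone) and 0 fell, against 17 and 0 in the 1-sample fit, with a median log2 difference of 1.95. The 3 chains of C1q, which skin macrophages make, rose together, with C1qb at 51.7, 90.2 and 68.4 FPKM in the IMQ libraries and 462, 479 and 453 FPKM in the CRS_IMQ libraries (log2 difference 2.75 ± 0.20, adjusted p = 0.00021). The IMQ values spread moderately and all lay far below those of CRS_IMQ. The receptors C3ar1 and C5ar1 rose by 2.51 ± 0.10 and 2.58 ± 0.07. Factor D (Cfd), an adipocyte product, rose by 1.28 ± 0.19. 

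**Figure D3:**
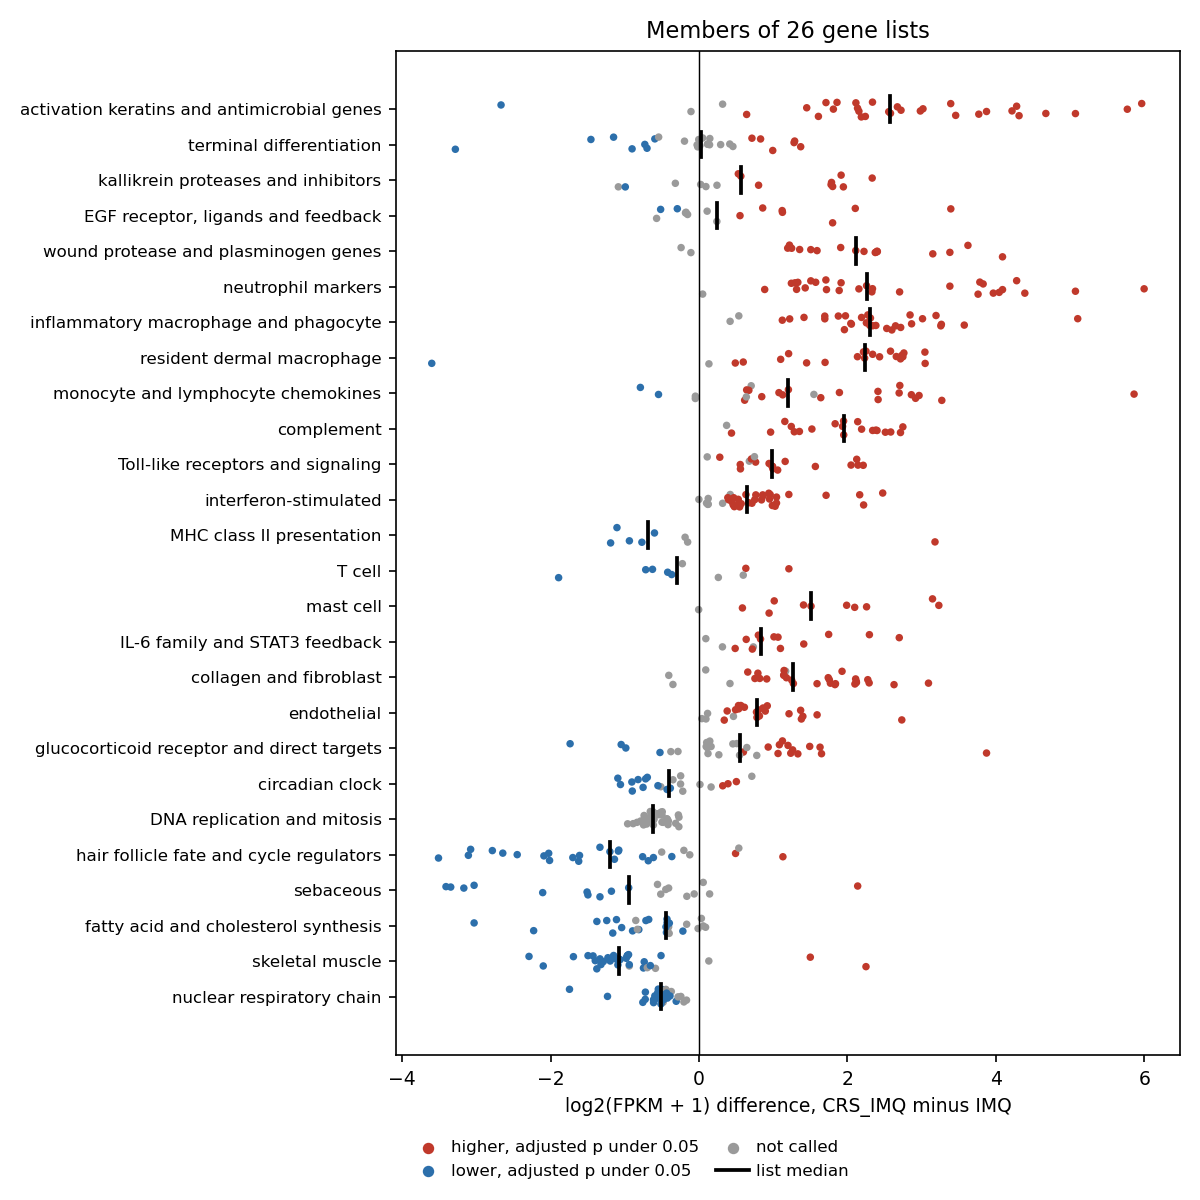
Difference in log2(FPKM + 1), CRS_IMQ minus IMQ, of each tested member of 26 gene lists, with called members in red (higher) or blue (lower), the others in grey and a black bar at the list median. Neutrophil, macrophage and complement lists lie to the right of 0, and hair follicle, sebaceous, muscle and respiratory chain lists to the left.

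Antigen presentation by MHC class II went the other way from macrophage genes. In the class II list 1 of 8 tested members rose and 5 fell, against 1 and 0 in the 1-sample fit, with a median log2 difference of -0.69, and 3 fell without IMQ replicate 3 or CRS_IMQ replicate 2 or 3. H2-Aa measured 23.3, 35.1 and 28.3 FPKM in the IMQ libraries and 15.1, 14.4 and 13.8 FPKM in the CRS_IMQ libraries (log2 difference -0.94 ± 0.15, adjusted p = 0.00459). H2-Ab1 and H2-Eb1 fell, with log2 differences of -1.11 ± 0.13 and -1.19 ± 0.17. The invariant chain Cd74 went from 107 ± 26.5 to 60.9 ± 1.74 FPKM, and its call was lost without IMQ replicate 3 or any CRS_IMQ library (adjusted p = 0.0567 to 0.0652). H2-Aa was lower in each CRS_IMQ library, with IMQ replicate 1 the lowest of its group. Ctss, the lysosomal protease cathepsin S, was the member that rose, at 17.6, 23.4 and 18.7 FPKM in the IMQ libraries and 190.1, 186 and 186 FPKM in the CRS_IMQ libraries (log2 difference 3.18 ± 0.11, adjusted p = 2.18e-05). 

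Dendritic and Langerhans cell genes were few, and 3 of 9 tested members rose (1 through CRS_IMQ alone) and 2 fell, against 2 and 0 in the 1-sample fit, with a median log2 difference of 0.13 (0.06 without CRS_IMQ replicate 3 and 0.23 without IMQ replicate 2). The costimulatory genes Cd86 and Cd80 rose by 1.08 ± 0.09 and 0.90 ± 0.09, Cd80 being tested through CRS_IMQ alone. Epcam, of Langerhans cells and follicle epithelium, fell with a log2 difference of -1.05 ± 0.11. In MHC class I presentation 8 of 20 tested members rose (1 through CRS_IMQ alone) and 1 fell, against 1 and 0 in the 1-sample fit, with a median log2 difference of 0.22. B2m, its light chain, rose by 1.11 ± 0.10, H2-M3 by 1.18 ± 0.08 and the immunoproteasome subunit Psmb8 by 0.82 ± 0.14. 

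Of the T cell genes 2 of 10 tested members rose (1 through CRS_IMQ alone) and 5 fell (3 through IMQ alone), against 1 and 0 in the 1-sample fit, with a median log2 difference of -0.30 (0.02 with a filter on the mean), and 2 fell without CRS_IMQ replicate 3 and 3 fell without IMQ replicate 3 or CRS_IMQ replicate 1 or 2, while 4 rose without IMQ replicate 2, but most of the list was too low to test. Cd3g, tested through IMQ alone, fell from 1.48 ± 0.288 to 0.5 ± 0.0302 FPKM. Cd4, which macrophages also carry, was tested through CRS_IMQ alone and rose from 0.647 ± 0.138 to 2.82 ± 0.429 FPKM. Gata3, also a factor of the inner root sheath, fell with a log2 difference of -1.89 ± 0.24. In the B and plasma cell list 7 of 8 tested members rose (2 through CRS_IMQ alone) and 0 fell, against 4 and 0 in the 1-sample fit, with a median log2 difference of 1.37. Its members were immunoglobulin genes, with Igkc at 4.17, 1.11 and 1.23 FPKM in the IMQ libraries and 48.2, 38.5 and 38.8 FPKM in the CRS_IMQ libraries (log2 difference 3.88 ± 0.36, adjusted p = 0.000543) and Ighg2c rising from 0.0634 ± 0.11 to 9.57 ± 0.604 FPKM. Igkc was higher in every CRS_IMQ library, as the filter required of Ighg2c, while Ighm was not called at 0.38 ± 0.15. 

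Mast cell genes rose nearly as a block, and 10 of 11 tested members rose (6 through CRS_IMQ alone) and 0 fell, against 8 and 0 in the 1-sample fit, with a median log2 difference of 1.51. Cpa3, the mast cell carboxypeptidase, measured 2.96, 6.26 and 4.74 FPKM in the IMQ libraries and 49.3, 51.2 and 51.0 FPKM in the CRS_IMQ libraries (log2 difference 3.23 ± 0.22, adjusted p = 0.000167). The high-affinity IgE receptor chain Fcer1a went from 0.596 ± 0.288 to 13 ± 0.687 FPKM, and the proteases Cma1 and Tpsb2 rose by 1.99 ± 0.16 and 2.10 ± 0.12. Mcpt4 rose by 1.51 ± 0.15. The groups of Cpa3 were separate, while those of Fcer1a, tested through CRS_IMQ alone, could not overlap. As 6 of the 10 risen members entered the test only through CRS_IMQ, the rise of the list as a block is given as a description. 

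Interferon-stimulated genes rose by small amounts, and 31 of 38 tested members rose (4 through CRS_IMQ alone) and 0 fell, against 5 and 0 in the 1-sample fit, with a median log2 difference of 0.65. The larger rises were in the Ifi200 family of DNA sensors, with Ifi205 at 3.69, 2.18 and 3.33 FPKM in the IMQ libraries and 21.3, 21.9 and 20.8 FPKM in the CRS_IMQ libraries (log2 difference 2.47 ± 0.15, adjusted p = 0.00013), and Ifi204 and Ifi211 rising by 2.16 ± 0.09 and 2.22 ± 0.09. The Ifi205 groups did not overlap. Ifi27l2a went from 54.2 ± 6.23 to 179 ± 9.10 FPKM, while Ifi27 was not called at 0.12 ± 0.06. Of the guanylate-binding proteins and related GTPases 10 of 13 tested members rose (1 through CRS_IMQ alone) and 0 fell, against 0 and 0 in the 1-sample fit, with a median log2 difference of 0.51, with Irgm2 at 0.81 ± 0.10 and Gbp2 at 0.62 ± 0.09. In the 1-sample fit Ltb4r1, Cfd, H2-Aa, H2-Ab1, H2-Eb1, Cd74, Epcam, B2m, Psmb8, Cd3g, Gata3, Mcpt4, Irgm2, Gbp2 and Errfi1 (adjusted p = 0.0619 to 0.259) did not pass.

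Cytokines of the IL-1 family start and spread epidermal inflammation. Of this family and the inflammasome 14 of 21 tested members rose (4 through CRS_IMQ alone) and 2 fell, against 7 and 0 in the 1-sample fit, with a median log2 difference of 0.79. Il33, an alarmin of keratinocytes and stromal cells, measured 3.25, 2.20 and 2.65 FPKM in the IMQ libraries and 32.0, 29.5 and 32.6 FPKM in the CRS_IMQ libraries (log2 difference 3.14 ± 0.12, adjusted p = 2.71e-05). Its receptor Il1rl1, which mast cells carry, went from 0.235 ± 0.0705 to 6.15 ± 0.326 FPKM. The decoy receptor Il1r2 rose by 1.33 ± 0.09. Il33 had no overlap between groups, and Il1rl1, tested through CRS_IMQ alone, could have none. Il1f6, IL-36 alpha, was not called (log2 difference 0.77 ± 0.30, adjusted p = 0.0921), and Il1f9, IL-36 gamma, was called at 0.72 ± 0.15 and lost without CRS_IMQ replicate 1 or 3 (adjusted p = 0.0514 to 0.0569). 

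Of the cytokines and receptors of the IL-23, IL-17 and IL-20 families 5 of 10 tested members rose (2 through CRS_IMQ alone) and 2 fell, against 2 and 0 in the 1-sample fit, with a median log2 difference of 0.29 (0.18 without IMQ replicate 2), and 3 rose without any CRS_IMQ library. Il17a, Il23a and Il22 did not reach 1 FPKM in enough libraries to be tested. Il17a stood at 0.2 ± 0.0698 to 0.0417 ± 0.0723 FPKM, Il23a at 0.0464 ± 0.0627 to 0.22 ± 0.0555 FPKM, and Il22 was listed at 0 throughout. Il24, which acts on keratinocytes, measured 0.16, 0 and 0.108 FPKM in the IMQ libraries and 5.79, 5.53 and 6.15 FPKM in the CRS_IMQ libraries (log2 difference 2.65 ± 0.09, tested through CRS_IMQ alone). All IMQ values of Il24 were near 0. The receptor Il17ra rose by 1.0 ± 0.09, and Nfkbiz and Zc3h12a, induced by IL-17 in keratinocytes, were called at 0.84 ± 0.20 and 0.60 ± 0.16 but lost, Nfkbiz without any CRS_IMQ library (adjusted p = 0.0595 to 0.0656) and Zc3h12a without IMQ replicate 3 or any CRS_IMQ library (adjusted p = 0.0738 to 0.0965). 

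STAT3 carries the signal of the IL-6 family. In the list of this family and its feedback genes 12 of 15 tested members rose (3 through CRS_IMQ alone) and 0 fell, against 6 and 0 in the 1-sample fit, with a median log2 difference of 0.83. Il4ra, the receptor chain for IL-4 and IL-13, measured 6.78, 6.03 and 6.82 FPKM in the IMQ libraries and 48.2, 47.6 and 47.9 FPKM in the CRS_IMQ libraries (log2 difference 2.70 ± 0.07, adjusted p = 1.12e-05). Socs3, a feedback inhibitor of STAT3, went from 14.5 ± 0.819 to 50.9 ± 0.933 FPKM and the NF-kB partner Bcl3 from 6.60 ± 0.367 to 36.3 ± 2.02 FPKM. Fosl1, a subunit of AP-1, rose by 1.41 ± 0.09 (tested through CRS_IMQ alone). Il4ra, Socs3 and Bcl3 had no overlap between groups. 

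Eicosanoids are lipid mediators made from arachidonic acid. Of the genes of their metabolism 11 of 26 tested members rose (3 through CRS_IMQ alone) and 4 fell (1 through IMQ alone), against 8 and 1 in the 1-sample fit, with a median log2 difference of 0.22, and 2 fell without CRS_IMQ replicate 2 or 3. Pla2g7, the hydrolase of platelet-activating factor, went from 4.54 ± 0.956 to 39.6 ± 1.17 FPKM. Alox5ap, the activator of 5-lipoxygenase, rose by 2.31 ± 0.16 and the epidermal phospholipase Pla2g4d by 2.52 ± 0.18. Alox12e, an epidermal lipoxygenase of the mouse, fell from 22.4 ± 1.33 to 3.27 ± 0.132 FPKM. 

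In the list of the glucocorticoid receptor and its direct targets 13 of 31 tested members rose (2 through CRS_IMQ alone) and 4 fell, against 7 and 0 in the 1-sample fit, with a median log2 difference of 0.55. Fkbp5, a co-chaperone that glucocorticoids induce, measured 7.13, 4.63 and 6.13 FPKM in the IMQ libraries and 15.5, 15.2 and 15.8 FPKM in the CRS_IMQ libraries (log2 difference 1.26 ± 0.14, adjusted p = 0.00123). Its groups did not overlap. Tsc22d3, encoding GILZ, was not called, at 25.5 ± 9.44 to 35.2 ± 6.42 FPKM, and neither was Per1 at 0.16 ± 0.28. The receptor Nr3c1 fell with a log2 difference of -0.53 ± 0.11. Hsd11b1, which regenerates active glucocorticoid, went from 0.717 ± 0.0797 to 4.31 ± 0.194 FPKM (tested through CRS_IMQ alone), and Anxa1, an anti-inflammatory annexin, from 55.6 ± 1.69 to 176 ± 3.85 FPKM. Pdk4 was called at -1.74 ± 0.40 and lost without IMQ replicate 3 or any CRS_IMQ library (adjusted p = 0.0569 to 0.0643). Several of the risers, Lcn2 and Il1r2 among them, are also genes of inflammation. 

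The clock genes moved by small amounts, and in the circadian clock list 3 of 22 tested members rose and 11 fell (1 through IMQ alone), against 0 and 0 in the 1-sample fit, with a median log2 difference of -0.41, while 7 fell without CRS_IMQ replicate 2 and 1 rose without any CRS_IMQ library. Dbp, an output transcription factor of the clock, measured 33.3, 25.3 and 34.1 FPKM in the IMQ libraries and 13.4, 14.3 and 13.8 FPKM in the CRS_IMQ libraries (log2 difference -1.09 ± 0.13, adjusted p = 0.0013). Per3 and Tef, another output factor, fell, with log2 differences of -1.06 ± 0.14 and -0.91 ± 0.18, and Ciart was at -0.90 ± 0.14. Arntl, encoding BMAL1, was called at 0.39 ± 0.11 and lost without IMQ replicate 1 or 3 or any CRS_IMQ library (adjusted p = 0.0669 to 0.124). Nr1d1 was not called at -0.22 ± 0.07. Each CRS_IMQ library was below each IMQ library for Dbp. The hour at which skin was taken is not given in the sources used here. 

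Of the immediate early genes 8 of 23 tested members rose (2 through CRS_IMQ alone) and 8 fell, against 1 and 0 in the 1-sample fit, with a median log2 difference of 0.00. The phosphatase Dusp1, Egr1 and Fosb fell, with log2 differences of -1.05 ± 0.09, -0.93 ± 0.10 and -1.13 ± 0.10, and Junb rose by 0.74 ± 0.08. Receptors of stress hormones were mostly low, and 4 of 12 tested members rose (1 through CRS_IMQ alone) and 3 fell, against 1 and 0 in the 1-sample fit, with a median log2 difference of 0.21. The beta-adrenergic receptor Adrb3 of fat fell with a log2 difference of -1.26 ± 0.23, and Crhr2, a receptor for corticotropin-releasing hormone peptides, with one of -1.0 ± 0.15. In heat shock and unfolded protein genes 7 of 26 tested members rose and 1 fell, against 1 and 0 in the 1-sample fit, with a median log2 difference of 0.12 (0.06 without IMQ replicate 2), and 11 rose without IMQ replicate 2. Among oxidative stress genes 14 of 30 tested members rose (2 through CRS_IMQ alone) and 2 fell, against 7 and 0 in the 1-sample fit, with a median log2 difference of 0.40. Hmox1, heme oxygenase, measured 27.3, 30.0 and 28.2 FPKM in the IMQ libraries and 216, 214 and 216 FPKM in the CRS_IMQ libraries (log2 difference 2.87 ± 0.07, adjusted p = 7.61e-06), and Gsta4, a glutathione transferase, went from 5.24 ± 1.84 to 82.5 ± 3.08 FPKM. Neither overlapped between groups. Mt1 and Mt2, metallothioneins that glucocorticoids and metals induce, were not called (0.64 ± 0.36 and 0.46 ± 0.42). In the 1-sample fit Il1f9, Il17ra, Nfkbiz, Zc3h12a, Fkbp5, Nr3c1, Pdk4, Dbp, Per3, Tef, Ciart, Arntl, Dusp1, Egr1, Fosb, Junb, Adrb3, Crhr2 and Lcn2 (adjusted p = 0.0549 to 0.351) did not pass.

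Dermal matrix genes were higher. Of the collagen and fibroblast genes 26 of 31 tested members rose and 0 fell, against 10 and 0 in the 1-sample fit, with a median log2 difference of 1.27. Col3a1, type III collagen, measured 77.0, 124 and 95.1 FPKM in the IMQ libraries and 605, 595 and 613 FPKM in the CRS_IMQ libraries (log2 difference 2.63 ± 0.17, adjusted p = 0.000156). Lox, which cross-links collagen and elastin, went from 3.62 ± 0.483 to 38.3 ± 0.661 FPKM, and the proteoglycan genes Lum and Dcn rose by 2.29 ± 0.06 and 2.27 ± 0.11. Col1a1 rose by 2.12 ± 0.41, with IMQ replicate 2 above the other two IMQ libraries. The groups of Col3a1, Lox and Col1a1 were separate. Of the matricellular and wound matrix genes 13 of 21 tested members rose (2 through CRS_IMQ alone) and 1 fell, against 4 and 0 in the 1-sample fit, with a median log2 difference of 0.68. Tnc, the wound matrix protein tenascin C, measured 2.79, 4.26 and 3.29 FPKM in the IMQ libraries and 72.7, 72.7 and 71.3 FPKM in the CRS_IMQ libraries (log2 difference 4.05 ± 0.13, adjusted p = 1.74e-05), and Thbs2, a thrombospondin, rose by 3.28 ± 0.08. Tenascin C was at a few FPKM in every IMQ library. 

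Of the endothelial genes 20 of 24 tested members rose (3 through CRS_IMQ alone) and 0 fell, against 4 and 0 in the 1-sample fit, with a median log2 difference of 0.78. Sele and Selp, the selectins that leukocytes roll on, rose by 1.59 ± 0.09 and 1.38 ± 0.19. The adhesion molecule Vcam1 rose by 1.40 ± 0.14, and Lyve1, of lymphatic vessels and resident macrophages, from 0.704 ± 0.145 to 10.3 ± 0.438 FPKM. Both Vcam1 and Lyve1 were tested through CRS_IMQ alone. The structural gene Plvap rose by 0.81 ± 0.07. Hemoglobin genes, which come with blood, were at 380.2 ± 175 to 794 ± 27.4 FPKM for Hba-a1, and in the erythroid list 3 of 7 tested members rose and 0 fell, against 0 and 0 in the 1-sample fit, with a median log2 difference of 1.14 (0.70 without IMQ replicate 2), while 1 rose without IMQ replicate 3 or any CRS_IMQ library and 5 rose without IMQ replicate 1 and 6 rose without IMQ replicate 2. The call of Hba-a1 at 1.19 ± 0.37 was lost without IMQ replicate 3 or any CRS_IMQ library (adjusted p = 0.0895 to 0.128), and without IMQ replicate 2 the difference was 0.75. The part of blood or vessel content in the leukocyte results was not tested.

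Most called hair follicle genes fell, but part of them were tested through IMQ alone. Of the keratins and regulators of the inner root sheath and hair cortex 1 of 16 tested members rose (1 through CRS_IMQ alone) and 9 fell (5 through IMQ alone), against 0 and 3 in the 1-sample fit, with a median log2 difference of -3.01. Krt73 and Krt35, both tested through IMQ alone, were called at -4.96 ± 1.13 and -4.56 ± 1.11, and lost without IMQ replicate 3 or any CRS_IMQ library (adjusted p = 0.0568 to 0.0747). Krt25 measured 4.97, 237 and 97.4 FPKM in the IMQ libraries and 2.63, 2.14 and 1.88 FPKM in the CRS_IMQ libraries and was not called (log2 difference -4.02 ± 1.31, adjusted p = 0.0563). Its groups did not overlap, but IMQ replicate 2 was far above IMQ replicate 1. Krt75, of the companion layer, fell from 34.0 ± 13 to 2.57 ± 0.331 FPKM. The summed level of the list was 235, 1414 and 711 FPKM in the IMQ libraries and 89.7 to 93.7 FPKM in the CRS_IMQ libraries.

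Of the regulators of hair follicle fate and cycle 2 of 27 tested members rose and 21 fell (6 through IMQ alone), against 1 and 2 in the 1-sample fit, with a median log2 difference of -1.20. Shh, the growth signal of the hair matrix, measured 3.05, 16.9 and 8.88 FPKM in the IMQ libraries and 0.0168, 0.0172 and 0.0782 FPKM in the CRS_IMQ libraries (log2 difference -3.11 ± 0.51, tested through IMQ alone), and its target Gli1 went from 40.1 ± 19.5 to 3.48 ± 0.225 FPKM. IMQ replicate 1 had the lowest Shh of its group, and the filter left no overlap with CRS_IMQ. Dlx3 was called at -2.79 ± 0.78 and lost without IMQ replicate 2 or 3 or any CRS_IMQ library (adjusted p = 0.0501 to 0.106). In the melanocyte list 0 of 10 tested members rose and 3 fell, against 0 and 0 in the 1-sample fit, with a median log2 difference of -0.69 (-0.45 without IMQ replicate 2), and 5 fell without IMQ replicate 1. Dct, a pigment enzyme, went from 27.2 ± 13.9 to 6.54 ± 0.092 FPKM, and Pmel was called at -1.78 ± 0.43 and lost without IMQ replicate 3 or any CRS_IMQ library (adjusted p = 0.0667 to 0.069). 

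Proliferation genes were lower on average without a single call, and in the list of DNA replication and mitosis 0 of 35 tested members rose and 0 fell, against 0 and 0 in the 1-sample fit, with a median log2 difference of -0.62 (-0.97 without IMQ replicate 1 and -0.29 without IMQ replicate 2). At an unadjusted p under 0.05 in limma there were 2, and 30 fell without IMQ replicate 1 by the adjusted p. Mki67 measured 7.55, 30.4 and 16.5 FPKM in the IMQ libraries and 7.61, 8.09 and 8.48 FPKM in the CRS_IMQ libraries (log2 difference -0.89 ± 0.45, adjusted p = 0.17). IMQ replicate 1 lay within or below the CRS_IMQ values, and IMQ replicate 2 was highest. The list's mean level, centred over the 6 libraries, was -0.48, 1.01 and 0.35 in the IMQ libraries and -0.31 to -0.27 in the CRS_IMQ libraries. Hair matrix cells divide rapidly, and the hair keratin list ranked the IMQ libraries in the same order. The part of hair growth in these differences was not tested.

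**Figure D4:**
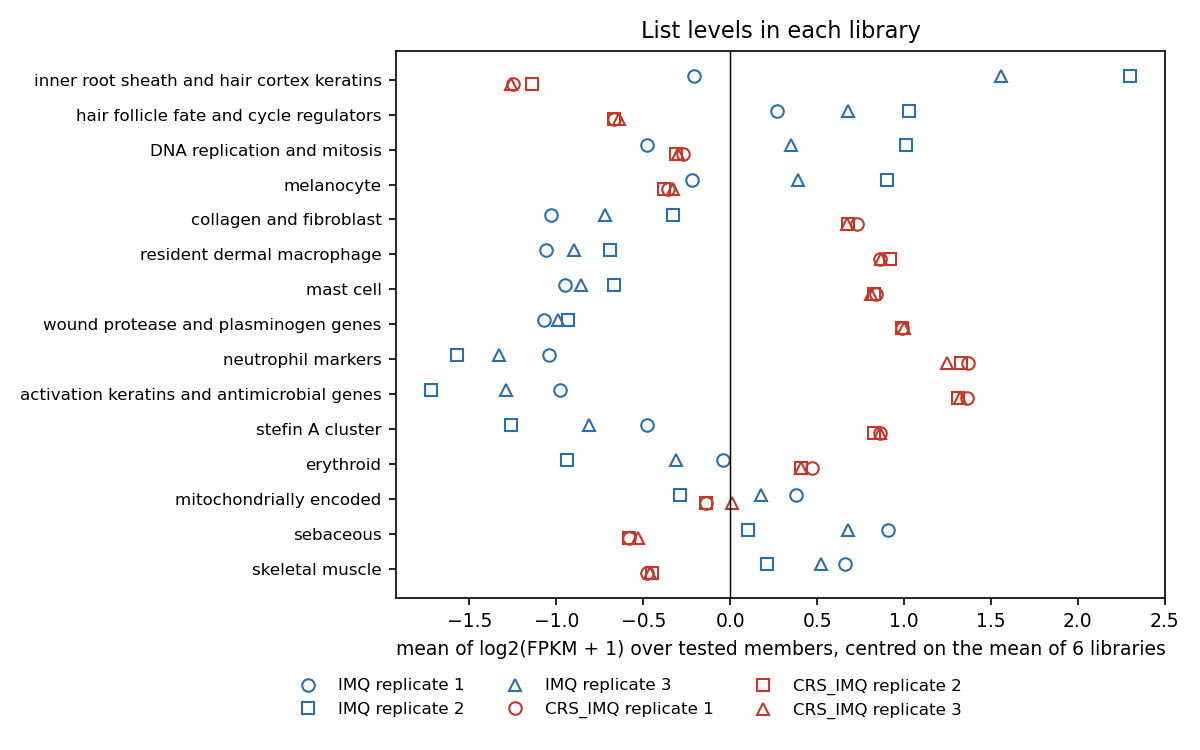
Mean of log2(FPKM + 1) over the tested members of 15 lists in each library, centred on the mean of the 6 libraries, IMQ in blue and CRS_IMQ in red with 1 symbol per replicate number. IMQ replicate 2 is highest and replicate 1 lowest of the IMQ libraries for hair keratin, hair regulator, replication and melanocyte lists, and the order is reversed for neutrophil and antimicrobial lists.

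Sebaceous glands secrete wax esters and triglycerides. In the sebaceous list 1 of 19 tested members rose and 10 fell (2 through IMQ alone), against 1 and 1 in the 1-sample fit, with a median log2 difference of -0.95, and 6 fell without IMQ replicate 3. Elovl3, a fatty acid elongase of the gland, measured 90.6, 24.2 and 62.4 FPKM in the IMQ libraries and 4.59, 5.18 and 4.81 FPKM in the CRS_IMQ libraries (log2 difference -3.17 ± 0.46, adjusted p = 0.00309). Awat1, a wax synthase, fell from 19.9 ± 9.38 to 0.827 ± 0.275 FPKM. Elovl3 was lower in every CRS_IMQ library, with IMQ replicate 2 its lowest IMQ library. Krt79, a keratin of the gland duct, fell from 148 ± 6.56 to 57.9 ± 1.29 FPKM, and Scd1 was not called at -0.41 ± 0.35. Of the genes of fatty acid and cholesterol synthesis 0 of 27 tested members rose and 17 fell, against 0 and 2 in the 1-sample fit, with a median log2 difference of -0.45. Elovl6, a fatty acid elongase, fell with a log2 difference of -3.03, as did the mevalonate genes Idi1 and Hmgcs1, with -1.38 and -1.24. 

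Adipocyte genes did not move as a group, and 6 of 22 tested members rose and 8 fell (1 through IMQ alone), against 0 and 1 in the 1-sample fit, with a median log2 difference of -0.13, while 3 rose without CRS_IMQ replicate 1 or 3 and 5 fell without IMQ replicate 3 or any CRS_IMQ library. Lep, the hormone leptin, fell from 3.22 ± 0.325 to 0.687 ± 0.208 FPKM (tested through IMQ alone). Car3 and Cidea were called at -0.79 ± 0.21 and -1.50 ± 0.40 and lost without IMQ replicate 3 or any CRS_IMQ library (adjusted p = 0.0763 to 0.0978). In retinoid metabolism 10 of 18 tested members rose (2 through CRS_IMQ alone) and 5 fell, against 4 and 0 in the 1-sample fit, with a median log2 difference of 0.62. Crabp2, a retinoic acid carrier of activated epidermis, went from 26.8 ± 4.51 to 126 ± 2.45 FPKM, Fabp5, a fatty acid carrier that is high in psoriatic epidermis, from 207 ± 55.7 to 975 ± 14.7 FPKM, and Rarres1 fell from 26 ± 9.62 to 5.33 ± 0.135 FPKM. 

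Most genes of muscle and most nuclear genes of the respiratory chain were lower. Of the skeletal muscle genes 2 of 34 tested members rose (1 through CRS_IMQ alone) and 28 fell, against 2 and 6 in the 1-sample fit, with a median log2 difference of -1.07. Pvalb, the calcium buffer of fast fibers, measured 437, 412 and 441 FPKM in the IMQ libraries and 87.8, 86.6 and 86.5 FPKM in the CRS_IMQ libraries (log2 difference -2.29 ± 0.07, adjusted p = 1.18e-05), and Ckm, muscle creatine kinase, measured 2115, 1671 and 1996 FPKM in the IMQ libraries and 596, 600.0 and 581 FPKM in the CRS_IMQ libraries (log2 difference -1.69 ± 0.11, adjusted p = 0.000131). All 3 CRS_IMQ libraries were below all 3 IMQ libraries for both. Acta1 fell with a log2 difference of -0.95 ± 0.14. Tnnc1, the troponin C of slow and cardiac muscle, rose from 0.624 ± 0.235 to 6.69 ± 0.58 FPKM, against the direction of the list, but was tested through CRS_IMQ alone. Of genes of muscle atrophy and muscle stress 2 of 22 tested members rose and 5 fell, against 0 and 2 in the 1-sample fit, with a median log2 difference of -0.16 (-0.39 without IMQ replicate 2 and 0.00 without IMQ replicate 1), and 10 fell without IMQ replicate 2. Mstn, the growth inhibitor myostatin, went from 17.5 ± 2.16 to 3.44 ± 0.312 FPKM, and Sln, a regulator of the calcium pump, from 171 ± 33.6 to 44.5 ± 2.51 FPKM. How much panniculus muscle each sample held was not measured here.

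Of the nuclear genes of the respiratory chain 0 of 35 tested members rose and 28 fell, against 0 and 0 in the 1-sample fit, with a median log2 difference of -0.51. The muscle isoforms Cox7a1 and Cox6a2 fell, with log2 differences of -1.75 ± 0.28 and -1.23 ± 0.21, as did the general subunit Sdhb, with -0.76 ± 0.11. The mitochondrially encoded genes had no call, and 0 of 13 tested members rose and 0 fell, against 0 and 0 in the 1-sample fit, with a median log2 difference of -0.27 (-0.41 without IMQ replicate 2 and -0.16 without IMQ replicate 1), while 4 had an unadjusted p under 0.05 in limma and 8 fell without IMQ replicate 2. Of the glycolysis genes 8 of 24 tested members rose and 5 fell, against 4 and 0 in the 1-sample fit, with a median log2 difference of -0.03 (-0.14 without IMQ replicate 2, 0.07 without IMQ replicate 1 and 0.04 with median-ratio scaling), while 3 fell without IMQ replicate 3 or any CRS_IMQ library and 8 fell without IMQ replicate 2. The muscle isoforms Pfkm and Aldoa fell, with log2 differences of -1.24 ± 0.17 and -1.10 ± 0.14, and the glucose transporter Slc2a1 and the leukocyte hexokinase Hk3 rose by 1.54 ± 0.21 and 1.82 ± 0.16. In the nerve list 2 of 13 tested members rose and 6 fell, against 0 and 0 in the 1-sample fit, with a median log2 difference of -0.12 (-0.19 without CRS_IMQ replicate 3), while 3 fell without IMQ replicate 3 or CRS_IMQ replicate 1 or 3, with Sox10 at -0.65 ± 0.08. Ribosomal protein genes had no call, and 0 of 30 tested members rose and 0 fell, against 0 and 0 in the 1-sample fit, with a median log2 difference of 0.00. Of them 1 had an unadjusted p under 0.05 in limma, while 4 rose without IMQ replicate 2 and 2 fell without IMQ replicate 1. In the 1-sample fit Acta1, Col1a1, Selp, Vcam1, Plvap, Hba-a1, Krt73, Krt35, Shh, Gli1, Dlx3, Dct, Pmel, Elovl3, Awat1, Elovl6, Car3, Cidea, Fabp5, Rarres1, Cox7a1, Cox6a2, Sdhb, Pfkm, Aldoa, Slc2a1 and Sox10 (adjusted p = 0.051 to 0.365) did not pass.

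The stress difference with imiquimod was set against that without it by the interaction over all 12 libraries, in which each difference lies within 1 deposited table. Of 14864 genes 4172 had a higher (28.1%) and 3153 a lower (21.2%) difference with imiquimod than without. Both stressed groups had little spread. Over abundant genes with 1 transcript the median coefficient of variation was 15.8% in Ctrl, 5.62% in CRS, 15.01% in IMQ and 4.39% in CRS_IMQ. The interaction was not refitted with a stressed group averaged to 1 sample, so its calls lack the check given to the list counts. Among the 21 tested genes of a list of psoriasis, barrier, glucocorticoid, clock and tissue markers, 17 passed, against 49.3% of all tested genes. Krt16, a keratin of activated epidermis, stood at 31.8 ± 12.1 FPKM in Ctrl, 7.26 ± 0.755 in CRS, 303 ± 118 in IMQ and 3921 ± 64.3 in CRS_IMQ. Its stress difference was -1.91 without and 3.77 with imiquimod (interaction 5.68 ± 0.46, adjusted p = 3.14e-06). Lyz2 stood at 1147 ± 207 FPKM in Ctrl, 141 ± 3.99 in CRS, 182 ± 35.5 in IMQ and 1657 ± 9.56 in CRS_IMQ, with a difference of -3.0 without and 3.19 with imiquimod (interaction 6.20 ± 0.21, adjusted p = 1.54e-08). Both differences were below 0 without imiquimod and above 0 with it. Krt10 and Lor, of terminal differentiation, had differences of -4.18 without and 0.14 with imiquimod (interaction 4.32 ± 0.29, adjusted p = 8.49e-07) and -4.15 without and -1.46 with imiquimod (interaction 2.69 ± 0.31, adjusted p = 4.35e-05). The difference of Fkbp5 was above 0 in both settings, 2.21 without and 1.26 with imiquimod, and smaller with imiquimod (interaction -0.95 ± 0.17, adjusted p = 0.000868). Col1a1 (0.89 without and 2.12 with imiquimod) and Nr3c1 (-0.63 without and -0.53 with imiquimod) did not pass, with interaction 1.23 ± 0.49, adjusted p = 0.0569 and interaction 0.10 ± 0.37, adjusted p = 0.839.

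**Figure D5:**
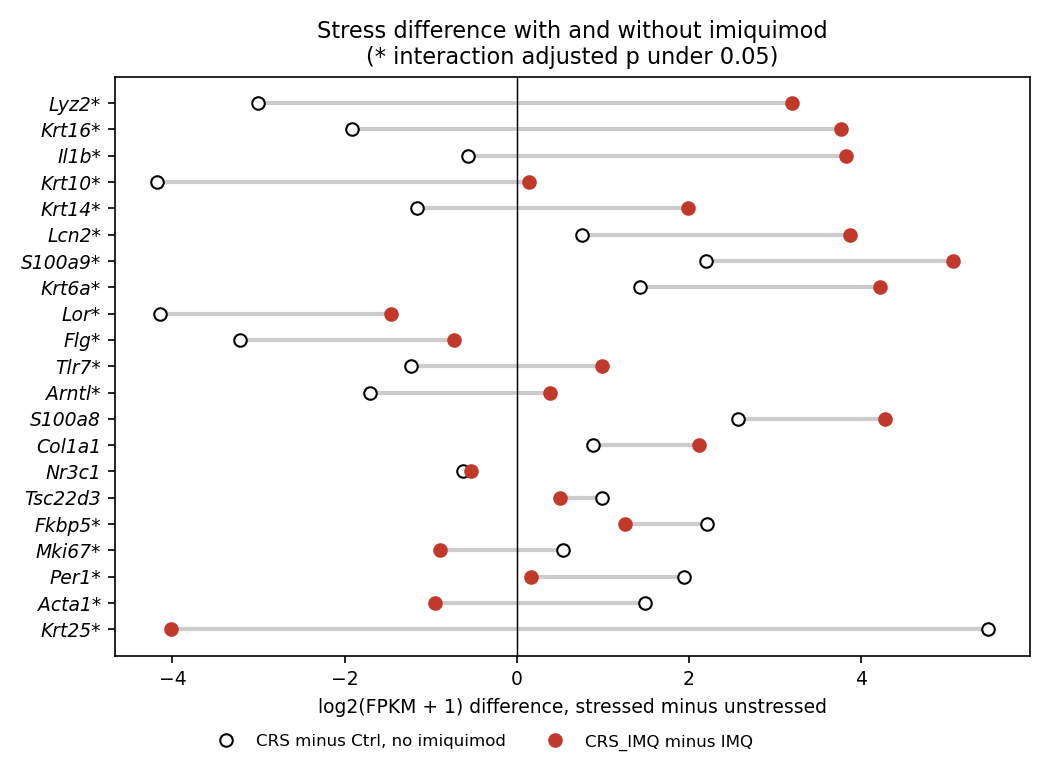
Stress difference in log2(FPKM + 1) without imiquimod (CRS minus Ctrl, open circles) and with it (CRS_IMQ minus IMQ, red circles) for the 21 tested marker genes, with an asterisk for an interaction adjusted p under 0.05. Lyz2, Krt16, Krt14, Tlr7 and Il1b lie below 0 without imiquimod and above 0 with it, and Krt25, Acta1 and Mki67 the other way round.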

How the data were processed

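RNA from mouse dorsal skin was extracted with TRIzol and sequenced, per the labels' protocols. StringTie, edgeR, limma and the mm10 build are named in the submitters' processing notes. Versions, strandedness and the aligner are not given in the sources used here. Deposited by the authors were FPKM per gene in 2 tables, one with Ctrl and CRS and one with IMQ and CRS_IMQ. The deposited ratio (fold change), log2 fold change, p-value and q-value columns were not used. Columns of other samples numbered 0.

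Deposited FPKM at the floor of 0.0001 were set to 0, and log2(FPKM + 1) was fitted with limma 3.58.1 and statmod 1.5.0 (R 4.3.3) using empirical Bayes moderation, robust and with an intensity trend. Tests were two-sided, with Benjamini-Hochberg adjustment over all tested genes. The fit was tested on simulated data. The interaction was fitted over 12 libraries, for genes with at least 1 FPKM in 3 of them. Of genes that share a symbol, the most abundant was used. Near copies (Sprr, Lce, stefin and immunoglobulin genes) may share reads. Gene positions are GENCODE M21 on mm10, and promoters are RefSeq on GRCm38.p6.

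Lists and members were chosen with earlier results of these data known. Named genes were the 10 largest rises and 10 largest falls among called genes without overlap, with a mean of at least 1 FPKM in the higher group and no predicted symbol, then per list up to 4 called members with the largest differences and the 2 most abundant members, and a list of markers. Some genes of this rule are not reported here. Other filters, pseudocounts, scalings, weights, groupings and omissions were tried as alternatives.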

Additional observations from a re-analysis of the deposited data

Results flagged for a closer look

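For 17 of 21 compared marker genes the stress difference with imiquimod was not that without it, by the limma interaction test over all genes. Of all 14864 genes in that test 7325 passed (49.3%). As with the lists, a larger share is a description and no test of the markers. The low spread of both stressed groups enters this test, and it was not refitted with a stressed group averaged to 1 sample. Lyz2 (interaction 6.20), Krt16 (5.68), Il1b (4.39), Krt10 (4.32), Krt14 (3.14), Tlr7 (2.23) and Arntl (2.09) had differences below 0 without imiquimod and above 0 with it, on the log2 scale, although that of Krt10 with imiquimod was not called. The calls of Tlr7 and Arntl with imiquimod were lost with replicate numbers as blocks and under most omissions of 1 library. That of Tlr7 was also lost with quantile normalization and with a variance weight for each group. Mean differences of Krt25 (interaction -9.50), Acta1 (-2.44) and Mki67 (-1.43) ran from above 0 without imiquimod to below 0 with it, although those of Krt25 and Mki67 with imiquimod were not called. Krt25, an inner root sheath keratin, stood at 0.0249 ± 0.0251 FPKM in Ctrl, 44.6 ± 1.15 in CRS, 113 ± 117 in IMQ and 2.21 ± 0.379 in CRS_IMQ. Lor (interaction 2.69) and Flg (2.48) had differences below 0 in both settings, less so with imiquimod. Lcn2 (interaction 3.11), S100a9 (2.87) and Krt6a (2.78) had differences above 0 in both, larger with imiquimod. Fkbp5 (interaction -0.95) and Per1 (-1.78) had differences above 0 in both, smaller with imiquimod, and that of Per1 with imiquimod was not called and fell below 0 without IMQ replicate 2. The adjusted p of these 17 ran from 1.54e-08 for Lyz2 to 0.0356 for Mki67.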

How the results depend on the processing

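The count of called genes depended most on how the spread was estimated. With the CRS_IMQ libraries averaged to 1 sample 820 genes were called, 671 higher and 149 lower, against 5162, 2618 and 2544 with 6 samples. With IMQ replicates 1 and 2 against that mean, an alternative chosen after seeing the data, 304 were called, 290 higher and 14 lower. Requiring an absolute log2 difference of at least 1 left 1469, with 1005 higher and 464 lower. Leaving out each library in turn gave 3427 to 6156 called genes, 1973 to 3094 higher and 1448 to 3469 lower. No filter, a mean of at least 1 FPKM, a pseudocount of 0.1, quantile normalization, median-ratio scaling, a variance weight for each group and all 12 libraries gave 4872 to 5754, within 1.5 times of 5162. The interaction was called in 7325 genes and in 8141 with quantile normalization, and it was not refitted with CRS or CRS_IMQ averaged to 1 sample. Same-numbered libraries of the groups did not deviate together (correlations of -0.06, -0.01 and -0.02), and with the replicate block 3974 genes were called, 2192 higher and 1782 lower.

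Of 207 named genes 123 kept their side of the threshold with CRS_IMQ as 1 sample, 85 with IMQ replicates 1 and 2 against that sample, and 188 to 200 when a library was left out. Differences without a call changed sign in Asprv1 with quantile normalization (-0.28) and, without IMQ replicate 2, in Asprv1, Krt10, Per1 and Sprr4. Over the omissions of 1 library the differences ran from -0.10 to 0.14 for Asprv1, -0.04 to 0.30 for Krt10, -0.14 to 0.39 for Per1 and -0.01 to 0.54 for Sprr4. Counts of 1 or 2 members in the minor direction of a list also moved by over 1.5 times when a library was left out. With a pseudocount of 0.1 the median difference of neutrophil markers was 4.16 and that of neutrophil chemoattractants 3.05, against 2.26 and 1.13. Precision is limited by 3 libraries a group and by the unknown depth.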
